A study of Rattus norvegicus with 8 samples.

Results

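The genes described here belong to the ATF4 arm of the integrated stress response: Atf4 itself, its partner factors Atf3 and Ddit3, and the targets Chac1, Trib3, Asns, Sesn2, Vldlr and Fgf21. They were chosen by name, with earlier results of these data known. Their counts set beside shares of all probe sets or genes are therefore descriptions and no test. Every probe set whose only gene symbol in the platform annotation is one of these 9 genes was taken, which gave 15 of 31042 probe sets, and 9 of the 14217 genes with a probe set of 1 symbol. Chac1, Atf3, Atf4, Ddit3, Asns and Fgf21 have 1 probe set each, Sesn2 has 2, Trib3 has 3 and Vldlr has 4. Probe sets of 1 gene read the same transcript and are not replicates.

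The treated livers came from 4 male Wistar rats labelled as given an antiangiogenic treatment, which the series description calls angiogenesis inhibitors, and are called treated 1 to 4 after their titles. They were compared with livers of 4 male Wistar rats labelled vehicle, called vehicle 1 to 4, which the series description calls not treated. All 8 rats had cirrhosis produced with inhaled carbon tetrachloride (CCl4) 2 times a week, a toxin that kills hepatocytes, and drank water with phenobarbital at 0.3 g/L, which induces drug-metabolizing enzymes. The sources used here do not name the compound, its dose, the rats' age or the time of sampling. RNA of whole frozen liver was hybridized to Affymetrix Rat2302 arrays, 1 per liver. The deposited values are log2 intensities from robust multi-array average (RMA), so that 1 unit is a 2-fold step.

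The integrated stress response is set off when 1 of several kinases phosphorylates the translation factor eIF2alpha, after amino acid shortage, unfolded protein in the endoplasmic reticulum (ER), viral RNA or lack of heme. Most protein synthesis then slows, while Atf4 mRNA is translated more, because of short upstream reading frames in its leader. The ATF4 protein binds C/EBP-ATF response elements (CARE) together with C/EBP factors and switches on genes for amino acid supply, redox balance and, in prolonged stress, cell death. In liver this response follows toxins, fasting and protein restriction, and it drives release of the hormone FGF21. Because ATF4 is controlled at translation, the level of its mRNA is not a measure of its activity.

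Promoter sequences from RefSeq (assembly GRCr8), 250 bases before to 50 bases after the transcript start, were matched by symbol for 8 of the 9 genes, all but Atf3. They were searched on both strands for TGATGNAA, the core of a CARE. The core occurred in 3 of the 8 promoters and in 3.82% of 27457 promoters of this length. TGACGTNA, a form of the cyclic AMP response element that ATF factors bind, occurred in 0 of 8 and in 3.39% of all, and the ER stress element, CCAAT and CCACG with 9 free bases between them, in 0 of 8 and in 0.0765% of all. The motifs overlap in no member promoter, since the members held matches to the CARE core alone. The match lay 167 to 160 bases before the start in Chac1 (chr3:126795881-126796180, plus strand), 21 to 14 bases before it in Trib3 (chr3:161275484-161275783, minus strand) and 143 to 136 bases before it in Fgf21 (chr1:105221327-105221626, minus strand). These promoters are shown because the arrays separate their genes, with Chac1 apart from Trib3 and Fgf21, and that of Asns (chr4:36769366-36769665, minus strand), which holds no match in this window, is shown beside them. Sequences run 5′ to 3′ on the strand of the gene, and capitals mark the match, which lies on the opposite strand in each and so reads TTNCATCA.
Chac1: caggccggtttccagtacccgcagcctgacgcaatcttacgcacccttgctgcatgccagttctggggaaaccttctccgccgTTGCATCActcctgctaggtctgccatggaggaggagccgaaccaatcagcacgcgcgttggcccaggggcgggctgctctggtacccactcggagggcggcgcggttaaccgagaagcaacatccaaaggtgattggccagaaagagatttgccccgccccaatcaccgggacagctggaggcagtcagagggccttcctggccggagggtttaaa
Trib3: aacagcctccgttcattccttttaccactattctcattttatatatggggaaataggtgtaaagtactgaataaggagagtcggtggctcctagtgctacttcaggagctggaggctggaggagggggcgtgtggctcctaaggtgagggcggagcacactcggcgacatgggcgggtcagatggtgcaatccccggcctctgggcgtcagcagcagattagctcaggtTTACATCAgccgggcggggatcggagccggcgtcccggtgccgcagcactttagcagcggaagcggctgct
Fgf21: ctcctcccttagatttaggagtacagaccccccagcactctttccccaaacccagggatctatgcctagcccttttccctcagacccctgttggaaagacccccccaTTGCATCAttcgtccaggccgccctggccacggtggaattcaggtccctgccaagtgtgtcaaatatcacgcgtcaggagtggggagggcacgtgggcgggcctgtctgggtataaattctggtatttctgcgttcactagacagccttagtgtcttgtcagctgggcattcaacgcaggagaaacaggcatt
Asns: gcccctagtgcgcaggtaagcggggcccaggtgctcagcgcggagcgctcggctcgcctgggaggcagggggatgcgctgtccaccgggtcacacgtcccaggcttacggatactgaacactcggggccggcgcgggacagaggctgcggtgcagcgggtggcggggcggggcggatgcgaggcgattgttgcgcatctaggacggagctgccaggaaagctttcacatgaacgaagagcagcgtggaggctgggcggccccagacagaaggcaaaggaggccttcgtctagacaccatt
Chac1 and Fgf21 share the same 8 letters and Trib3 differs from them within the free position of the motif. A match describes the letters of the window and was not tested as a binding site.

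The 8 arrays are not 8 equally separate measurements. Treated 3 and vehicle 4 were nearly identical, with a scaled median absolute deviation of their difference of 0.166 over all probe sets, against 0.251 to 0.404 in the other 27 pairs of arrays. At the 15 member probe sets they differed by 0.264 or less. Whether they are 2 separate livers was not tested, and each n of 4 below counts both. Levels of BioB and BioC, bacterial transcripts spiked into each hybridization, put treated 1 and vehicle 1 apart, with BioC 1.32 and 1.48 above BioB, against −0.063 to 0.095 on the other arrays. With the level of BioB this gave 3 spike-in groups, treated 1 with vehicle 1, treated 2 and 4 with vehicle 2 and 3, and treated 3 with vehicle 4. The labels name no batch, so these groups are a grouping of arrays by their controls only. The log2 ratio of 3′ to 5′ Gapdh control probe sets averaged 0.288 ± 0.114 in treated and 0.301 ± 0.113 in vehicle livers (SD, n = 4 each, exact two-sided permutation p = 0.914). By array it was highest on treated 1 (0.404) and vehicle 1 (0.414). Treated 1 was the lowest array for 7 of the 9 genes, each at its brightest probe set, and vehicle 1 for the other 2. The Gapdh ratio was lowest on treated 2 (0.133) and vehicle 3 (0.186), where 7 of the 9 genes had their highest value. On vehicle 4, where none of the 9 was lowest, the Gapdh ratio was 0.378. The same ratio of beta-actin did not follow this order. It was highest on vehicle 3 (1.91) and treated 2 (1.88), and read 1.87 on treated 1 and 1.86 on vehicle 1. The part of RNA quality in the pattern of the 9 genes was not tested. The labelled tissue was checked against hepatocyte markers. Albumin read 14.79 to 14.85 on the 8 arrays, and 9 of 9 measured hepatocyte markers lay above the 25th percentile of each array, which was 3.74 to 3.91.

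Chac1 stood lowest against vehicle of the 9 genes, 4.91-fold lower on average in treated livers, followed by Atf3 at 2.96-fold and Vldlr at 1.87-fold, while Atf4 mRNA averaged nearly the same in both groups. None of these differences passed the test across the array. In limma with Benjamini-Hochberg adjustment over 31042 probe sets, 0 of the 15 member probe sets were called at an adjusted p of 0.05, as were 0 of all probe sets (0%), and the smallest adjusted p was 0.979. At an unadjusted p of 0.05, 4 of 15 member probe sets were lower in treated livers, 3 of them of Vldlr and the other of Chac1, against 2.04% of all probe sets in that direction and 3.93% in either. Counted by gene, 2 of 9 passed this unadjusted p, against 4.75% of all genes. Lower means in treated livers were found at 14 of 15 member probe sets, against 45.3% of all. None of the 15 (0) was higher at this p, against 1.89% of all. The count of 4 lower member probe sets at this p depended on single arrays. Only Chac1 still passed when treated 1 or vehicle 3 was dropped. Dropping vehicle 1 left none of the 4, and the 1 member probe set that then passed was 1391607_at of Sesn2. The count fell to 2 on dropping treated 2 or vehicle 2, and to 3 on dropping vehicle 4. It rose to 6 on dropping treated 3 and to 5 on dropping treated 4. The count was 0 when treated 1 and vehicle 1 were both dropped, and 0 with unmoderated variances. It was 7 with the replicate number as a block. In bulk liver, fewer cells of a type and less RNA per cell cannot be told apart.

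Of the 9 genes, each taken at its brightest probe set, 8 averaged lower in treated livers, against 48.4% of all genes, and their median difference was −0.70, against 0.01 over all genes. Within the 3 spike-in groups, in the order given, this median was −0.33, −0.70 and −0.02. It was −0.16 without treated 1, −0.34 without vehicle 3 and −1.07 without vehicle 1, so single arrays set its size. At least 2-fold lower means were found at 3 of 15 member probe sets (Chac1, Atf3 and 1 of Vldlr), against 0.867% of all probe sets. Without treated 1 this count was 1, Chac1, and without vehicle 3 it was 2, while it was 6 without treated 2 or without vehicle 1 and 5 without treated 3. The spread among arrays was wide. The median range over the 8 arrays was 3.49 for the 9 genes and 0.71 for all genes.

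**Figure D1:**
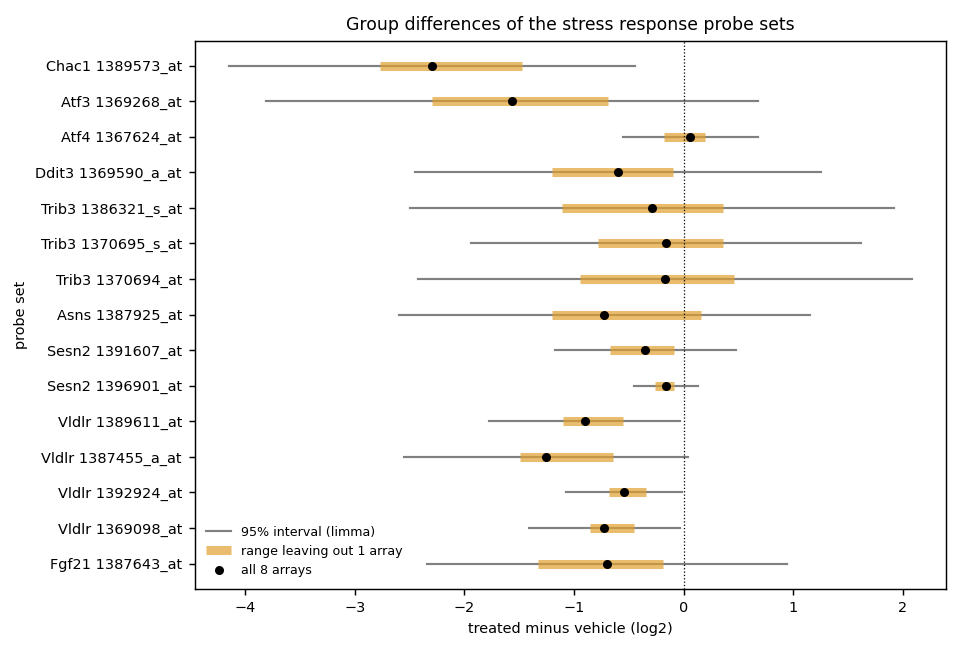
Treated minus vehicle difference (log2, x axis) of each of the 15 probe sets (y axis), with its 95% interval from limma as a thin line and the range of the difference when each array in turn is left out as a thick bar. The intervals of Chac1 (−4.15 to −0.44) and of 3 Vldlr probe sets lie below 0, and the bars of Trib3, Asns and Atf4 reach both sides of 0.

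Atf4 (1367624_at), the transcription factor at the centre of the response, read 10.28, 11.41, 10.71 and 10.34 on treated 1 to 4, against 10.11, 10.72, 11.01 and 10.65 on vehicle 1 to 4. The groups overlapped over most of their range, with treated 2 highest and vehicle 1 lowest. Its mean was 10.68 ± 0.52 in treated and 10.62 ± 0.37 in vehicle livers (SD, n = 4 each), a difference of 0.06 with a 95% interval from −0.56 to 0.68 (limma adjusted p = 0.996). The interval leaves room for a level up to 1.47-fold lower in treated livers.

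Atf3 (1369268_at), a stress-induced bZIP factor that is itself a target of ATF4, read 4.79, 8.29, 9.59 and 6.96 on treated 1 to 4, against 7.08, 9.36, 9.93 and 9.54 on vehicle 1 to 4. Treated 1 and 4 lay below every vehicle array, and treated 3 lay among the vehicle arrays, beside its near-copy vehicle 4. Atf3 averaged 7.41 ± 2.05 in treated and 8.98 ± 1.29 in vehicle livers, a difference of −1.57 (SE 0.99, 95% interval −3.81 to 0.68, limma adjusted p = 0.979). Within spike-in groups the values were −2.29, −2.02 and 0.05, and leaving out treated 1 gave −0.69.

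Ddit3 (1369590_a_at) encodes CHOP, a C/EBP family factor of prolonged ER stress that partners ATF4. It read 6.90, 8.70, 10.08 and 7.97 on treated 1 to 4, against 7.21, 8.41, 10.39 and 10.02 on vehicle 1 to 4. Both groups spanned nearly the same range, with the arrays numbered 1 lowest in each. The difference of −0.60 had a 95% interval from −2.45 to 1.25 (limma adjusted p = 0.979), and it was −0.09 without treated 1 and −1.20 without vehicle 1.

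Chac1 (1389573_at), an enzyme that degrades glutathione and a marker of the ATF4 and CHOP pathway, read 5.67, 9.56, 8.97 and 8.33 on treated 1 to 4, against 11.31, 10.89, 10.51 and 8.99 on vehicle 1 to 4. All 4 treated arrays lay below vehicle 1 to 3, and 3 of 4 lay below the lowest vehicle array, vehicle 4. The mean was 8.13 ± 1.72 in treated and 10.43 ± 1.01 in vehicle livers, a difference of −2.29 (SE 0.82, 95% interval −4.15 to −0.44, unadjusted p = 0.0208, limma adjusted p = 0.979). Within spike-in groups the Chac1 difference was −5.65, −1.76 and −0.02, the last of these between the near-copies treated 3 and vehicle 4. It was −3.05 without those 2 arrays, −1.47 without treated 1 and −1.18 without treated 1 and vehicle 1. Its range over the 8 arrays, 5.65, was the widest of the 9 genes.

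**Figure D2:**
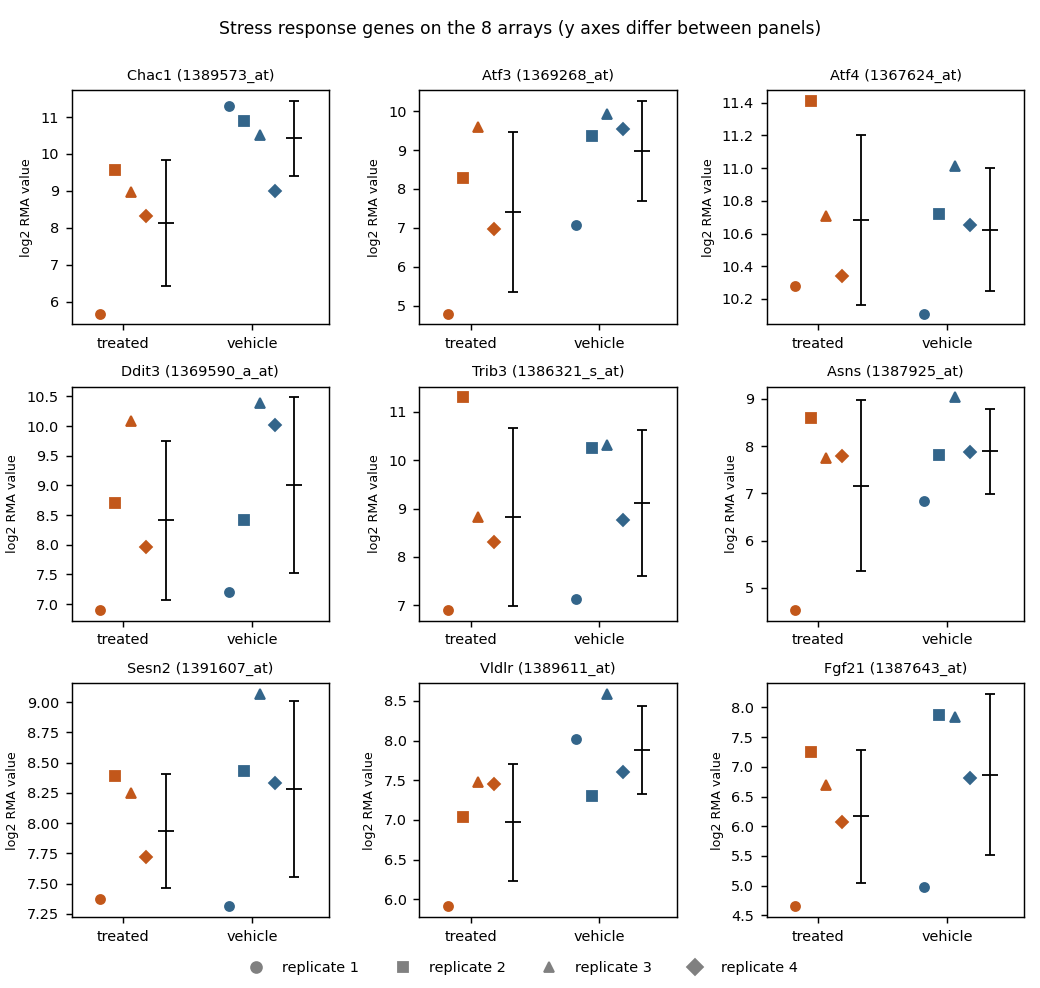
Log2 RMA values (y axis, scaled per panel) of the 9 genes at their brightest probe set in treated and vehicle livers, 1 point per array with the replicate number as its shape, and the mean with SD as a bar beside the points (n = 4 each). The circles of replicate 1 are low in both groups for Trib3, Ddit3, Fgf21 and Sesn2, whereas for Chac1 replicate 1 is lowest among treated (5.67) and highest among vehicle arrays (11.31).

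Trib3, a pseudokinase induced by ATF4 and CHOP that holds back both AKT and ATF4, was measured by 3 probe sets. At 1386321_s_at it read 6.90, 11.30, 8.82 and 8.30 on treated 1 to 4, against 7.13, 10.26, 10.32 and 8.76 on vehicle 1 to 4. Treated 2 was the highest array and the arrays numbered 1 were the lowest, so the groups covered the same span. The differences at 1386321_s_at, 1370695_s_at and 1370694_at were −0.29, −0.16 and −0.17, with limma adjusted p-values of 0.996, 0.997 and 0.997. Each turned positive when treated 1 was left out, to 0.36, 0.36 and 0.46. All 3 probe sets gave the same 2 lowest arrays and the same highest one.

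Asns (1387925_at), asparagine synthetase, read 4.53, 8.60, 7.74 and 7.79 on treated 1 to 4, against 6.84, 7.81, 9.03 and 7.87 on vehicle 1 to 4. Treated 1 lay far below the other arrays, and the other treated arrays lay within the vehicle range. Its difference of −0.72 (95% interval −2.59 to 1.15, limma adjusted p = 0.979) was 0.16 without treated 1. Within spike-in groups it was −2.31, −0.22 and −0.13.

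Sesn2, a stress sensor that restrains the growth kinase mTORC1 when leucine is scarce, has a bright and a dim probe set. The bright one (1391607_at) read 7.37, 8.39, 8.25 and 7.72 on treated 1 to 4, against 7.31, 8.43, 9.07 and 8.33 on vehicle 1 to 4. The treated values lay wholly inside the vehicle range. The difference was −0.35 (95% interval −1.18 to 0.47, limma adjusted p = 0.979), and it was −0.16 without treated 1, −0.09 without vehicle 3 and −0.68 without vehicle 1. The dim probe set (1396901_at) had a mean of 3.96 ± 0.10 in treated and 4.12 ± 0.22 in vehicle livers, close to the 25th percentile of the arrays, and its range of 0.53 did not follow that of the bright one.

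Vldlr, the very low density lipoprotein receptor, which takes triglyceride into cells and is induced through ATF4 in stressed mouse liver, was lower on average at all 4 of its probe sets. At 1389611_at, the brightest, it read 5.91, 7.04, 7.48 and 7.45 on treated 1 to 4, against 8.02, 7.30, 8.59 and 7.61 on vehicle 1 to 4. Treated 1 was lowest and vehicle 3 highest, and treated 3 and 4 lay between vehicle 2 and vehicle 4. The difference was −0.90 at 1389611_at (95% interval −1.78 to −0.03, unadjusted p = 0.0437), −1.26 at 1387455_a_at (−2.55 to 0.04, 0.0555), −0.54 at 1392924_at (−1.07 to −0.02, 0.0439) and −0.72 at 1369098_at (−1.41 to −0.03, 0.0417), each with a limma adjusted p of 0.979. Without treated 1 these were −0.55, −0.65, −0.47 and −0.46, and without vehicle 3 they were −0.67, −0.97, −0.35 and −0.49.

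The dimmest of them, 1369098_at, was the only member probe set whose groups did not overlap (1 of 15, against 1.67% of all probe sets, and 0.58% with treated lower). It read 3.77, 4.79, 4.89 and 4.84 on treated 1 to 4, against 5.19, 4.90, 5.98 and 5.11 on vehicle 1 to 4. The gap between the highest treated and the lowest vehicle array, treated 3 and vehicle 2, was small against the spread of either group. Within spike-in groups the 1389611_at difference was −2.10, −0.70 and −0.13, and it was −0.51 without treated 1 and vehicle 1.

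Fgf21 (1387643_at), the hormone that liver releases in fasting and amino acid shortage, read 4.65, 7.25, 6.70 and 6.08 on treated 1 to 4, against 4.97, 7.87, 7.83 and 6.81 on vehicle 1 to 4. The arrays numbered 1 were lowest in both groups, and among the others each treated array lay below vehicle 2 and 3. The difference of −0.70 (95% interval −2.34 to 0.94, limma adjusted p = 0.979) was −0.19 without treated 1 and −1.33 without vehicle 1. Fgf21 is also made by exocrine pancreas, whose 6 markers averaged 4.05 to 4.52 per array in treated and 3.99 to 4.29 in vehicle livers, with 1 of 6 lower in treated livers. Cela1, a pancreatic elastase, and Pnlip, pancreatic lipase, were above the 25th percentile of every array and the other 4 were not. Their part in the Fgf21 values was not tested.

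The arrays sorted the genes into those that followed the first spike-in group and those that did not. At 8 of 15 member probe sets, of Atf4, Ddit3, Trib3 (3), Asns, Sesn2 and Fgf21, both treated 1 and vehicle 1 lay below all 6 other arrays, against 3.13% of all probe sets. Trib3 (1386321_s_at) averaged 7.01 on these 2 arrays and 9.63 on the other 6, Fgf21 4.81 and 7.09, Ddit3 7.05 and 9.26, and Asns 5.69 and 8.14. The median of this difference was −2.21 over the 9 genes and 0.01 over all genes. Chac1, Atf3 and Vldlr broke the pattern through vehicle 1. Chac1 read 11.31 there, its highest value, and Vldlr (1389611_at) 8.02, its second highest, whereas Atf3, at 7.08, was above treated 4. Taking the 9 genes at their brightest probe set, treated 1 was the lowest array for 7 and vehicle 1 for the other 2, against 15.4% and 14% of all genes, and 29.3% for either. Vehicle 3 was the highest array for 5 of 9, against 15.2% of all genes. These counts describe the arrays and are no test, and the 9 genes are not independent of each other.

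**Figure D3:**
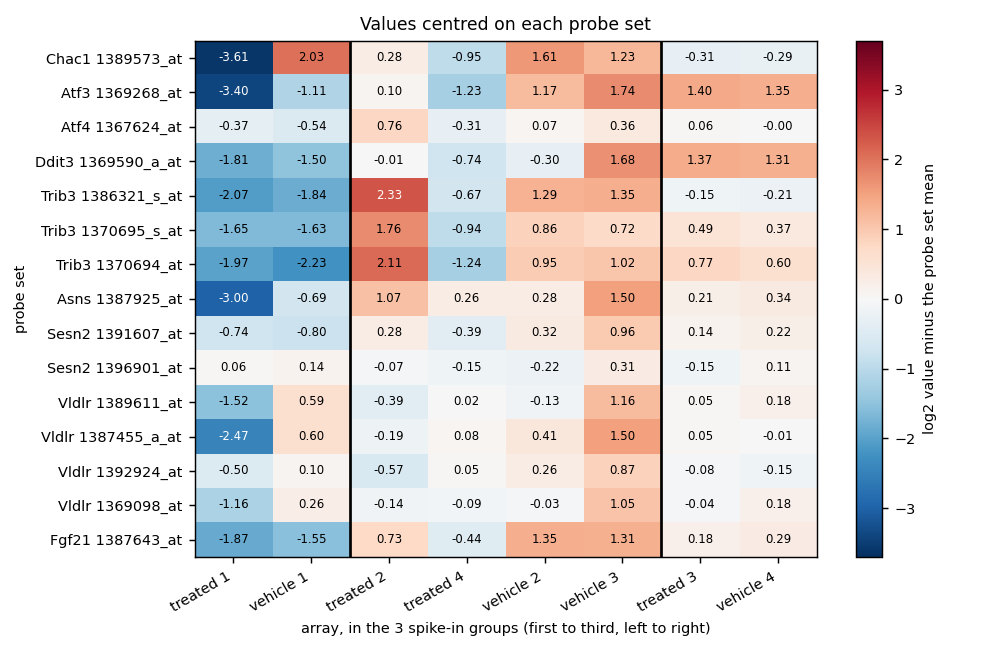
Log2 value minus the mean of its probe set over the 8 arrays (colour and printed number) for the 15 probe sets (rows) on the 8 arrays (columns), in the 3 spike-in groups divided by vertical lines and with treated arrays to the left within each. Trib3, Ddit3 and Fgf21 are below their mean on both arrays of the first group, Chac1 is at −3.61 on treated 1 and at 2.03 on vehicle 1, and the last 2 columns, the near-identical arrays, match closely.

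The genes closest to Chac1 over the 8 arrays, by root mean square difference of values centred on each gene's mean, were Rgs1 (0.629), Nr4a1 (0.685), Fos (0.703), Nr4a3 (0.706) and Slc25a25 (0.718). Rgs1 is a regulator of G protein signalling in leukocytes, Nr4a1 and Nr4a3 are orphan nuclear receptors, Fos is an immediate early factor, and Slc25a25 is a mitochondrial ATP-magnesium carrier. Of the other 8 stress response genes, Vldlr ranked nearest to Chac1, at 131 among all genes, followed by Asns at 208. Fos (1375043_at) read 2.95, 9.27, 7.45 and 7.07 on treated 1 to 4, against 9.23, 8.51, 8.48 and 7.37 on vehicle 1 to 4. Treated 1 was far below the other arrays in Fos as it was in Chac1, while treated 2 was the highest array in Fos and lay below vehicle 1 to 3 in Chac1. Ddit3, whose product CHOP induces Chac1, ranked 10706. The measure depends on the size of a gene's spread as well as on its shape, so this rank does not describe shape alone. Atf4, with a range of 1.29 over the 8 arrays, ranked 3668.

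**Figure D4:**
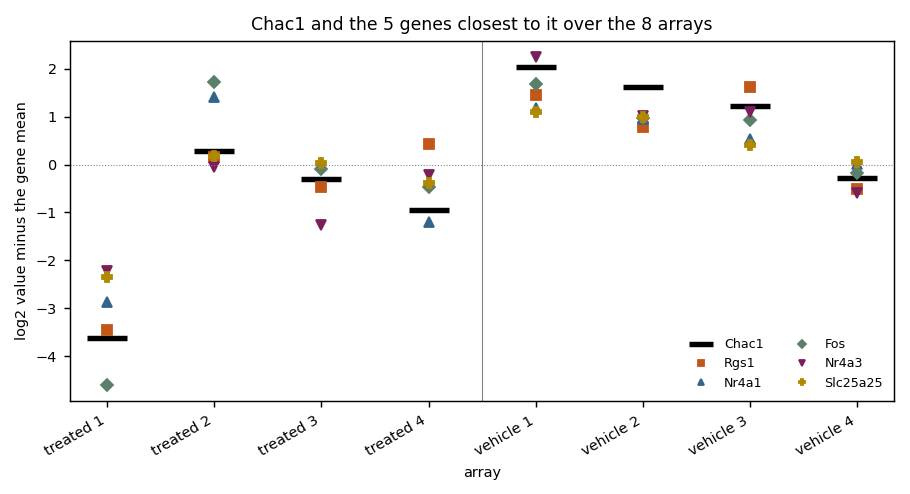
Log2 value minus the gene's mean over the 8 arrays (y axis) for Chac1 (black bars) and the 5 genes closest to it (symbols), with treated arrays to the left of vehicle arrays. All 6 genes are lowest on treated 1 and above their mean on vehicle 1 to 3.

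Upstream of Atf4 stand the eIF2alpha kinases and the eIF2 machinery. Of 4 kinase genes, 0 passed the test in either direction and 3 averaged lower, with a median difference of −0.05. Eif2ak1, the heme-regulated kinase, differed by 0.20 (95% interval −0.15 to 0.56), and Eif2ak3, the ER stress kinase PERK, by −0.17 (−0.67 to 0.34). Among 10 genes of eIF2, its exchange factor eIF2B and the eIF2alpha phosphatase, 0 passed, 6 averaged lower and the median was −0.01. Ppp1r15b, the constitutive phosphatase subunit, read 8.66, 8.04, 8.09 and 7.95 on treated 1 to 4, against 7.77, 7.74, 7.72 and 8.07 on vehicle 1 to 4 (difference 0.36, −0.02 to 0.74), and Eif2b5, the catalytic eIF2B subunit, differed by 0.16 (−0.18 to 0.51). Ppp1r15a, the stress-induced phosphatase subunit GADD34, is singled out here after its values were seen, since it spread like the 9 genes. It read 6.01, 9.67, 9.24 and 7.58 on treated 1 to 4, against 7.79, 8.64, 9.67 and 9.10 on vehicle 1 to 4. Its difference of −0.67 (−2.39 to 1.05) was 0.033 without treated 1. Ppp1r15a was not alone in its spread. Its range over the 8 arrays was 3.65, and genes of the lists below had ranges up to 5.26.

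Among partner bZIP factors and Nupr1, 0 of 9 passed, 5 averaged higher and the median was 0.02. Nupr1, a chromatin-associated stress protein, differed by −0.60 (−1.63 to 0.43). Jdp2, a repressor that dimerizes with ATF3, averaged 4.08 ± 0.07 in treated and 4.29 ± 0.15 in vehicle livers, a difference of −0.21 (−0.46 to 0.03) without overlap, at a dim probe set. It was 1 of 9 genes of this list without overlap, against 1.67% of all probe sets, and 0.58% with treated lower.

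Among genes for amino acid supply, 0 of 13 measured synthesis enzymes passed and 8 averaged lower, against 48.4% of all genes, with a median of −0.28. Aldh18a1, which starts proline synthesis, differed by −0.70 (−1.39 to 0.00), and Cbs, of the transsulfuration pathway, by 0.48 (−0.02 to 0.99). Of 10 amino acid transporters, 0 passed, 8 averaged lower and the median was −0.24. Slc38a2, a transporter of small neutral amino acids, read 9.85, 12.11, 11.41 and 11.58 on treated 1 to 4, against 12.70, 12.19, 12.19 and 11.49 on vehicle 1 to 4 (difference −0.90, −1.93 to 0.12), and Slc1a5, a glutamine transporter, differed by −0.31 (−0.68 to 0.05). The medians of the synthesis and transporter lists were 0.01 and −0.03 without treated 1. At 4 of the 10 transporters both arrays numbered 1 were the lowest.

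Cytosolic aminoacyl-tRNA synthetases, which charge tRNAs and include many ATF4 targets, had 14 of 17 genes lower on average, 0 passing and a median of −0.09, which was 0.08 without vehicle 3. Cars1, for cysteine, differed by −0.38 (−0.77 to 0.01) and Wars1, for tryptophan, by −0.47 (−1.16 to 0.22). Effectors downstream of ATF4 or CHOP had 10 of 14 genes higher on average, 0 passing and a median of 0.07. Ero1a, an ER oxidase, differed by 0.65 (−0.27 to 1.57). Ddit4, an mTORC1 inhibitor also induced by hypoxia and glucocorticoid, read 6.13, 7.18, 6.04 and 8.98 on treated 1 to 4, against 9.48, 8.47, 8.65 and 6.16 on vehicle 1 to 4 (difference −1.10, −2.94 to 0.73). Treated 3 and vehicle 4 were both among its 3 lowest arrays.

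The FGF21 receptor genes had 4 of 5 list members measured, 3 of them lower on average, with 0 passing. Fgfr4, the main fibroblast growth factor receptor of hepatocytes, read 8.52, 8.14, 8.11 and 8.19 on treated 1 to 4, against 8.01, 8.08, 7.80 and 8.02 on vehicle 1 to 4. All treated arrays lay above all vehicle arrays, and the nearest pair was treated 3 and vehicle 2 (difference 0.26, −0.02 to 0.55). It was 1 of 4 measured genes of this list without overlap, against 1.67% of all probe sets. Fgfr1, a receptor of FGF21 in fat tissue, differed by −0.38 (−0.78 to 0.01). ER chaperones and targets of XBP1 or ATF6, the other arms of the ER stress response, had 11 of 14 genes lower on average, with a median of −0.09 and 0 passing. Hsp90b1, an ER chaperone, differed by −0.23 (−0.72 to 0.25) and Xbp1, the factor activated by IRE1 splicing, by 0.23 (−0.40 to 0.87). At 7 of these 14 genes both arrays numbered 1 were the lowest.

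**Figure D5:**
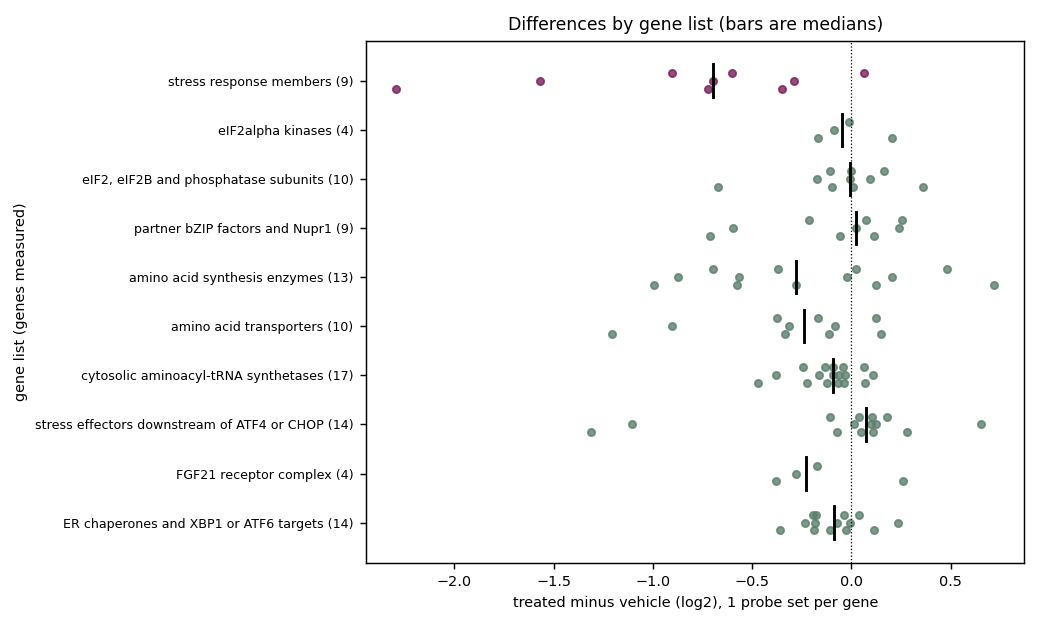
Treated minus vehicle difference (log2, x axis) of each gene at its brightest probe set for the 9 stress response genes and 9 lists of related genes (y axis, with the number of genes measured), with medians as black bars. The 9 genes have a median of −0.70, and the medians of the other lists lie between −0.28 and 0.07.

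Markers of the cell types that liver tissue can hold were read on the same arrays. Endothelial markers averaged 6.87 to 7.04 per array in treated and 7.02 to 7.94 in vehicle livers, with 7 of 7 lower and a median difference of −0.68. The low vehicle end was vehicle 4 (7.02), beside its near-copy treated 3 (6.99), while vehicle 1 to 3 read 7.94, 7.86 and 7.92. Stellate cell and myofibroblast markers averaged 6.76 to 7.81 in treated and 7.18 to 8.15 in vehicle livers, and 5 of 6 were lower. Macrophage markers spanned 6.72 to 8.34 in treated and 7.89 to 8.42 in vehicle livers, with the low end on treated 1. T cell markers spanned 4.54 to 5.01 in treated and 4.56 to 5.25 in vehicle livers, bile duct markers 5.90 to 6.97 and 5.90 to 7.05, and erythroid markers 6.05 to 6.35 and 6.23 to 7.48. Vehicle 4 was also the lowest vehicle array for stellate cell and myofibroblast, T cell, bile duct and erythroid markers. For erythroid markers vehicle 1 to 3 read 7.48, 7.28 and 7.17. Hepatocyte markers spanned 13.34 to 13.73 and 13.61 to 13.77, with 6 of 9 lower and a median difference of −0.02. Apoa1 and Tat differed by −0.64 and −0.30, and Apoh by 0.13. Albumin, the brightest of all probe sets, had a range of 0.065 over the 8 arrays. Whether the signal of the brightest markers was near a ceiling was not tested. Of the markers of any of these cell types, 0 passed the test. Vldlr is expressed by endothelium and macrophages, and Atf3 by many activated cells. The part of cell content in their differences was not tested.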

How the data were processed

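Transcript levels of 8 livers, 4 per group, were taken from the deposited table of 31099 rows. Its values are log2 intensities made by the authors with affy and RMA, per the submitters' processing notes. RMA as a method corrects background, equalizes the distribution of values across arrays and summarizes each probe set. The sources used here give no versions or settings. No further normalization was applied. Leaving out 57 control probe sets kept 31042, of which 20826 had 1 symbol in the platform annotation, 436 several and 9780 none listed. Annotation through gene identifiers in the RefSeq table changed 0 symbols.

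Treated minus vehicle differences, 95% intervals and p-values came from limma 3.58.1 (R 4.3.3), lmFit and eBayes, with no covariates and Benjamini-Hochberg adjustment over all 31042 probe sets, and the procedure was tested on simulated data. Each gene in a list stands at its probe set with the highest mean. Named are all 9 genes at every probe set, the 2 genes with the smallest unadjusted p in each list, and the 5 genes nearest to the member with the widest range. Array number and brightness limit precision, and RMA understates differences of dim probe sets. The 9 genes, the lists and the alternatives were chosen with earlier results of these data known, so no list was given a test. The series description counts 4 rats per group, and whether the 2 nearly identical arrays come from separate rats was not tested. Spike-in groups came from average-linkage clustering of mean BioB and BioC levels.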

Additional observations from a re-analysis of the deposited data

Results flagged for a closer look

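In 4 of 78 groups of 4 arrays, 1 array lay far from the other 3 by Dixon's test, which chance alone does in about 1 group in 20. Trib3 (1370694_at) read 6.02 on vehicle 1, against 8.85 to 9.27 on the other vehicle arrays. Vldlr read 4.42 on treated 1 at 1387455_a_at, against 6.70 to 6.97 on the other treated arrays, and 3.77 at 1369098_at, against 4.79 to 4.89. Ppp1r15b (1374473_at) read 8.07 on vehicle 4, against 7.72 to 7.77 on the other vehicle arrays and 8.09 on its near-copy treated 3.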

How the results depend on the processing

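The count of 0 called member probe sets stayed at 0 under every alternative run: quantile normalization, median centring, filters on dim probe sets (mean above 6 or the 40th percentile), eBayes with trend and robust settings, no moderated variances, array weights, both blocks, leaving out the near-identical arrays, and leaving out each array in turn. Without treated 1 and vehicle 1, a setting chosen after seeing the data, it was also 0. The count over all probe sets was 0 except 3 without the 2 nearly identical arrays and 11 without vehicle 4, a range of 0 to 11 over the arrays left out. The cause was not tested. With the replicate block this count was 0. The member median stayed at −0.70 there, as it must, since each number holds 1 treated and 1 vehicle array. Between arrays of the same number, deviations from the group means correlated at −0.114, 0.041, −0.124 and −0.620 for numbers 1 to 4. The main fit did not treat the numbers as pairs, although treated 1 and vehicle 1 shared a spike-in group. The member median, −0.70, ranged from −1.07 to −0.16 over the arrays left out. Of 423 single differences under other settings 1 changed sign, Eif2ak3 (1368326_at), to 0.029 without treated 1 and vehicle 1. Many of the 423 could not change, so this count is no measure of stability. The filters on dim probe sets, the eBayes settings, unmoderated variances and both blocks leave a difference as it is. Chac1 was −2.29 under each of them. A sign could change only with quantile normalization, median centring, array weights or arrays left out. With 1 array left out, signs turned for Trib3 (1386321_s_at from −1.11 to 0.36, 1370695_s_at from −0.78 to 0.36, 1370694_at from −0.94 to 0.46), Asns (1387925_at, −1.20 to 0.16), Atf4 (1367624_at, −0.18 to 0.20) and Ppp1r15a (−1.19 to 0.033). The differences of the other named list genes and of the 5 genes nearest to Chac1 kept their sign, whereas the medians of 6 of the 9 related lists, all but the kinases, the transporters and the FGF21 receptor genes, changed sign for at least 1 array left out. Median centring moved the median of all probe sets to 0.072.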
